A study of Homo sapiens with 4 samples.

Results

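The transcripts of 9 nuclear receptor coregulators were followed in 22Rv1 cells exposed to JMC45: the p160 coactivators NCOA1, NCOA2 and NCOA3, the acetyltransferases EP300 and CREBBP, the coactivator and ferritin receptor NCOA4, the SUMO ligase PIAS1, and the corepressors NCOR1 and NRIP1. They were chosen by gene symbol from a table of 63241 Ensembl genes, and each of the 9 symbols matched 1 row. 22Rv1 is a human cell line derived from castration-resistant prostate cancer. The vehicle group received DMSO and the treated group received 40 nM JMC45, which the submitters describe as a CDK9-targeting degrader and which was taken to be the D45 of the series title, and both were collected at 12 h. There were 2 libraries of poly(A)-selected RNA per group. The labels do not tie the libraries of a group to separate cultures, and p-values here reflect the spread between these libraries alone, which may be technical.

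Values are TPM, a share of each library corrected for transcript length, so levels can be compared between genes, but sequencing depth is unknown. After JMC45 most genes had lower TPM: the median of the 14018 genes tested changed by -1.10 on the log2(TPM + 1) scale, and mitochondrially encoded genes held 20.1% to 20.4% of vehicle TPM and 26.6% to 29.3% of JMC45 TPM. With size-factor scaling (a single factor per library from the median of ratios across genes), which sets the typical gene to about no change, that median was -0.02, and after quantile normalization it was 0.02. The changes of the 9 genes are therefore given on TPM and after both rescalings. All 8 luminal prostate markers passed the minimum mean of 1 TPM, with a summed level of 968.4 to 974.8 TPM in vehicle and 327.1 to 333.3 TPM in JMC45. The basal keratin KRT5 and the T cell marker CD3E were listed at 0 in every library, and the endothelial markers summed to at most 0.01 TPM. The 5 fibroblast markers summed to 7.27 to 7.74 TPM in vehicle and 6.34 to 7.07 TPM in JMC45.

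Nuclear receptors, such as the androgen receptor that prostate epithelial cells depend on, change transcription by recruiting coregulators. An agonist-bound receptor binds a p160 coactivator, which brings in EP300 or CREBBP to acetylate histones. Receptors without agonist, or with an antagonist, can instead bind NCOR1, the scaffold of a histone deacetylase complex. NRIP1 also docks on agonist-bound receptors, but recruits repressive enzymes, and PIAS1 attaches SUMO to transcription factors and modulates receptor activity.

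All 9 transcripts were lower in JMC45, with both treated libraries below both vehicle libraries in each case, but the changes were of 2 sizes, a division made after the values were seen. EP300, CREBBP, PIAS1 and NRIP1 were between 5.15-fold and 7.62-fold lower as a ratio of mean TPM. The 3 p160 genes, NCOA4 and NCOR1 were between 2.12-fold and 2.91-fold lower. Limma called all 9 lower and none higher on TPM, where it called 80.7% of all genes tested lower and 4.25% higher, and complete separation of the groups in that direction was seen for 85.7% of all genes, so the count of 9 is close to what genes in general showed. The median change of the 9 was -1.17, against -1.10 for all genes. After size-factor scaling, limma called 4 of the 9 lower (EP300, CREBBP, PIAS1 and NRIP1) and 1 higher (NCOA4), against 35.5% of all genes lower and 34.9% higher. Quantile normalization called 5 lower, the same 4 and NCOA4, and none higher, against 32.8% and 33.6% of all genes. All 9 genes passed the filter on low values. NRIP1, with a JMC45 mean under 1 TPM, passed only through its vehicle level, so its place among the genes that were lower is partly set by the filter. In bulk RNA, fewer cells that express a gene and less of its RNA per cell cannot be told apart.

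**Figure D1:**
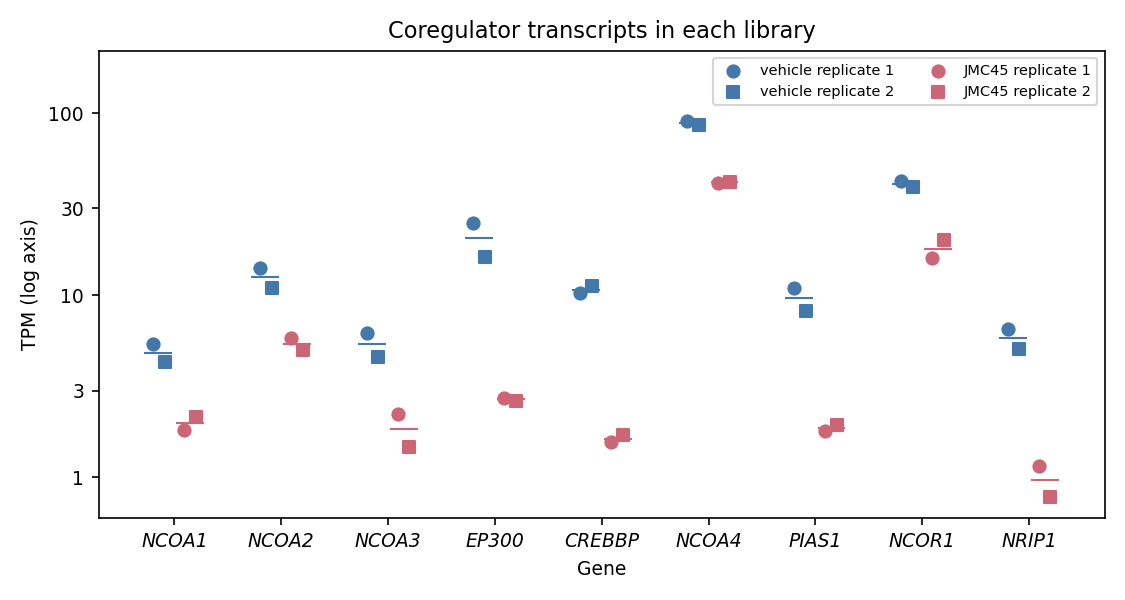
TPM of the 9 genes (log axis) in each of the 4 libraries, with vehicle in blue, JMC45 in red, circles for replicate 1, squares for replicate 2 and short lines for group means. The groups are separate for every gene, and the gap is widest for EP300, CREBBP, PIAS1 and NRIP1.

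EP300 and CREBBP are paralogous acetyltransferases, and they had the largest changes of the 9. EP300 (ENSG00000100393) measured 24.8 and 16.2 TPM in the vehicle libraries and 2.74 and 2.64 TPM in the JMC45 libraries. The vehicle libraries were well apart and the JMC45 libraries nearly equal, with no overlap between groups. Its level was 20.5 ± 6.08 TPM with DMSO and 2.69 ± 0.0707 TPM with JMC45 (SD, n = 2), and it changed by -2.51 on the log2 scale (SE 0.20, limma adjusted p = 6.82e-05). CREBBP (ENSG00000005339) measured 10.2 and 11.3 TPM in vehicle and 1.57 and 1.70 TPM in JMC45. Both groups were tight, and the log2 change was -2.16 (SE 0.13, limma adjusted p = 2.48e-05). Ordered from the most negative change on log2(TPM + 1), EP300 stood at percentile 5.77 and CREBBP at percentile 11.7 of all genes tested. Ordered by the ratio of mean TPM, they were less extreme, at percentiles 11.6 and 14.9. Both decreases kept their call after size-factor scaling, with log2 changes of -1.35 for EP300 and -1.09 for CREBBP, and after quantile normalization, with -1.17 and -0.85.

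The balance between the 2 acetyltransferases was not shown to differ. EP300 made up 70.8% and 59.0% of the summed EP300 and CREBBP TPM in the vehicle libraries and 63.6% and 60.8% in the JMC45 libraries. The JMC45 values lay between the vehicle values. The difference of -2.67 percentage points gave a two-sided exact permutation p = 1, and it was 3.23 without vehicle replicate 1. With 2 libraries against 2 this exact test cannot go below p = 0.33, so it bears little on small differences in the share.

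The promoter windows of these 2 genes, the pair with the largest decreases, are shown with that of NCOA4, the most abundant of the 9, whose direction depended on the scaling. Each is the farthest upstream RefSeq window of its gene on GRCh38.p14, from 250 bases before to 50 bases after the annotated start, and 8 of the 9 genes had a window in the table used. Capitals mark matches, on either strand, to 5 short motifs: the TATA core TATAAA, the GC box GGGCGG, the ETS core CGGAAG, the E-box CACGTG and the cAMP response element core TGACG.
EP300, chr22:41092342-41092641, plus strand: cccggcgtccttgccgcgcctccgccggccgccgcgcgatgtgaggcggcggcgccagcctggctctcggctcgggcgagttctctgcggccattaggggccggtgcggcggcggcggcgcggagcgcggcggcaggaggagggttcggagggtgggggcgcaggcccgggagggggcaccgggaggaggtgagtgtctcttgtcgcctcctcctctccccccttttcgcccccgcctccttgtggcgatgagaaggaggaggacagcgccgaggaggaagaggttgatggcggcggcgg
CREBBP, chr16:3880664-3880963, minus strand: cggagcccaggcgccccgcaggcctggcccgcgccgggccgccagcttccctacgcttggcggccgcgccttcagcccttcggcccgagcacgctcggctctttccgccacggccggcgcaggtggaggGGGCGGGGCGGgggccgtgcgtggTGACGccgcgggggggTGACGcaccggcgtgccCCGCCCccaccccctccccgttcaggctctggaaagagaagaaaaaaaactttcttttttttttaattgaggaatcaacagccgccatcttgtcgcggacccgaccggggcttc
NCOA4, chr10:46030574-46030873, minus strand: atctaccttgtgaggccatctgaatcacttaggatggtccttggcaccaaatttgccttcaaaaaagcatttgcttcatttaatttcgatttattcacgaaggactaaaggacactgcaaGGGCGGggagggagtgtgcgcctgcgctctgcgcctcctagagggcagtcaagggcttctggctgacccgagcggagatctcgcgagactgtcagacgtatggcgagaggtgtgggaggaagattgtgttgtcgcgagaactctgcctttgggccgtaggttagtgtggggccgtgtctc
The EP300 window held none of the 5 motifs, with a GC content of 75.3%. CREBBP had 3 GC box matches, 2 of them overlapping each other, and 2 TGACG matches, at a GC content of 70.3%. NCOA4 had 1 GC box match and a GC content of 53.7%, against a median of 58.7% over all 35116 windows. GGGCGG occurred in 44.95% of all windows, TGACG in 24.6%, CGGAAG in 19.5%, TATAAA in 11.5% and CACGTG in 7.26%. The EP300 and CREBBP windows thus differed in matches to these motifs, but both were rich in CpG, with 40 and 36 against a median of 14. CREBBP and NCOA4 each had 2 windows in the table used, of which only the farthest upstream was searched. Any relation of the motifs to the changes was not tested.

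The p160 coactivators bind liganded receptors through short leucine-rich motifs and carry the activation domains that hold EP300 and CREBBP. NCOA2 (ENSG00000140396, also called TIF2 or GRIP1) was the most abundant of the 3, at 14.1 and 11.0 TPM in vehicle and 5.80 and 5.00 TPM in JMC45. Its log2 change was -1.07 (SE 0.15, limma adjusted p = 0.000780), and it was 0.13 after size-factor scaling and 0.29 after quantile normalization, neither of them called. NCOA1 (ENSG00000084676), the founding member known as SRC-1, measured 5.41 and 4.28 TPM in vehicle and 1.82 and 2.16 TPM in JMC45. Its log2 change of -0.96 (SE 0.16, limma adjusted p = 0.00167) became 0.06 and 0.30 under the 2 rescalings, again without a call. NCOA3 (ENSG00000124151), known as AIB1 for its amplification in breast cancer, measured 6.19 and 4.58 TPM in vehicle and 2.24 and 1.46 TPM in JMC45. It had the widest relative spread of the 3 in both groups, and its log2 change of -1.17 (SE 0.20, limma adjusted p = 0.00207) became -0.15 and 0.09, not called. The 3 p160 transcripts thus lay at percentiles 47.1 to 56.3 of all changes, around the typical gene.

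Within the p160 family the mean proportions differed by a few percentage points between the 2 groups. NCOA2 held 54.8% and 55.3% of the summed TPM of the 3 genes in vehicle and 58.8% and 58.0% in JMC45, a difference of 3.33 percentage points without overlap (exact permutation p = 0.33, the smallest possible with these groups). That difference was -0.26 when 1 TPM was added to each value, so its direction rests on how low values are treated. NCOA1 held 21.1% and 21.6% in vehicle and 18.5% and 25.1% in JMC45, values that overlapped. NCOA3 held 24.1% and 23.1% in vehicle and 22.7% and 16.9% in JMC45, without overlap. The NCOA3 difference was -3.77 percentage points (exact permutation p = 0.33), and it was -0.88 without JMC45 replicate 2. The spread between the 2 JMC45 libraries was wider for NCOA1 and NCOA3 than the difference between groups.

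**Figure D2:**
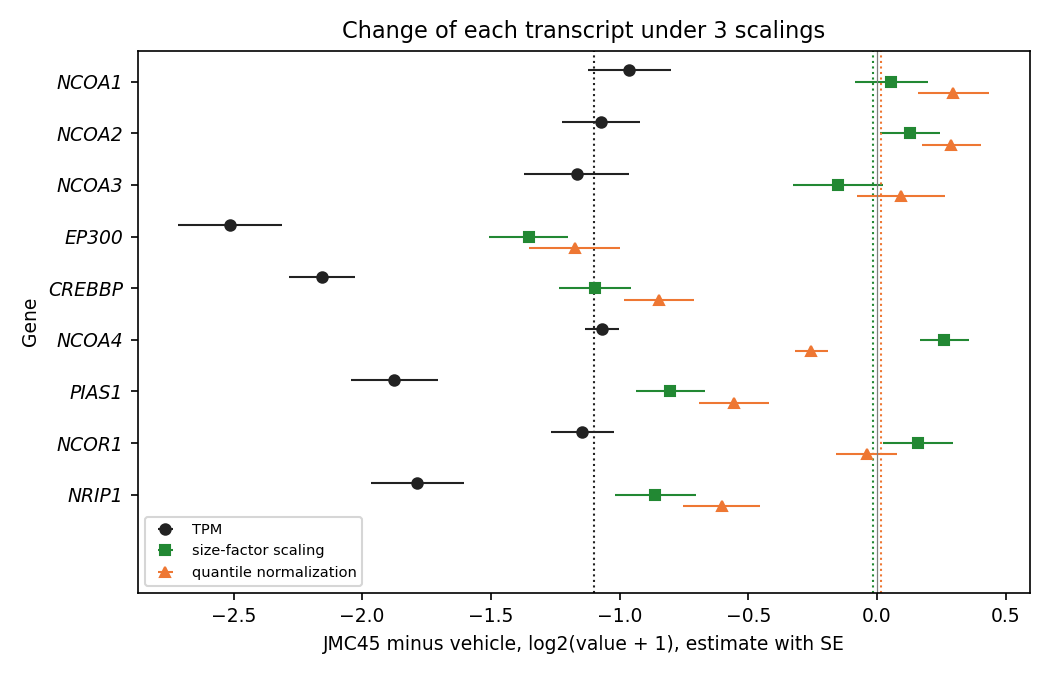
JMC45 minus vehicle for each gene on log2(value + 1), estimate with SE from limma, on TPM (black circles), after size-factor scaling (green squares) and after quantile normalization (orange triangles); dotted lines are the median of all tested genes on each scale. EP300, CREBBP, PIAS1 and NRIP1 lie below the matching dotted line on all 3 scales, whereas the other 5 lie near it, with values of NCOA1, NCOA2, NCOA3, NCOA4 and NCOR1 on both sides of 0 across the scales.

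PIAS1 (ENSG00000033800), an E3 ligase that attaches SUMO to receptors and other transcription factors, measured 11.0 and 8.18 TPM in vehicle and 1.79 and 1.94 TPM in JMC45. The groups were far apart, and its log2 change was -1.88 (SE 0.17, limma adjusted p = 0.000107). It remained lower after size-factor scaling (-0.80) and quantile normalization (-0.56). In GENCODE release 29, PIAS1 shares 3260 exonic bases with CALML4 on the opposite strand. CALML4 measured 23.5 and 25.7 TPM in vehicle and 24.1 and 25.3 TPM in JMC45. PIAS1 also shares 2933 exonic bases with ENSG00000260007 on the opposite strand. That gene measured 5.27 and 3.63 TPM in vehicle and 3.91 and 3.89 TPM in JMC45. No source used here says whether counting used strand, so the level of PIAS1 is uncertain, and the part of such reads in the result was not tested.

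PIAS1 also held a smaller part of its own family in both JMC45 libraries. It held 13.6% and 11.3% of the summed TPM of PIAS1 to PIAS4 in vehicle and 7.43% and 8.003% in JMC45. The groups did not overlap, the difference was -4.73 percentage points (exact permutation p = 0.33, the smallest possible here), and it lay between -5.85 and -3.62 when any 1 library was left out and was -2.90 with 1 TPM added to each value. PIAS3, the most abundant of the other family members, went from 38.7 ± 0.735 to 14.9 ± 0.361 TPM (log2 change -1.32, then -0.02 after size-factor scaling and -0.17 after quantile normalization, neither called). PIAS2 fell by 1.63 and PIAS4 by 1.75 on the log2 scale, and after size-factor scaling both were still called lower, at -0.49 and -0.54. After quantile normalization PIAS4 was called lower (-0.39) and PIAS2 was not called (-0.27).

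NCOA4 (ENSG00000266412, also called ARA70) was described as an androgen receptor coactivator and is the cargo receptor that carries ferritin to lysosomes for iron release. It was the most abundant of the 9, at 90.4 and 86.4 TPM in vehicle and 41.3 and 42.0 TPM in JMC45. Replicates differed little, and its log2 change was -1.07 (SE 0.07, limma adjusted p = 2.78e-05). Its direction rests on the scaling: it was 0.26 after size-factor scaling (adjusted p = 0.0412) and -0.25 after quantile normalization (adjusted p = 0.0151), each past the limma threshold. The 4 named NCOA4 pseudogenes were at or below 0.05 TPM in every library.

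The ferritin genes moved the other way on TPM. FTH1, the heavy chain that NCOA4 binds, measured 905.5 and 941.9 TPM in vehicle and 1277 and 1200.05 TPM in JMC45, and its log2 change was 0.42 (SE 0.06, limma adjusted p = 0.000870). FTL, the light chain, went from 542.3 ± 1.73 to 676.95 ± 51.5 TPM (log2 change 0.32, limma adjusted p = 0.00549), and its call was lost without vehicle replicate 1 (0.31, adjusted p = 0.0503). Both increases were also called after size-factor scaling and quantile normalization, but with mitochondrial TPM equalised between libraries the values were -0.04 and -0.14, not called. Both genes have many pseudogenes, so their levels are uncertain. HERC2, a ligase that controls NCOA4 protein turnover, fell by 0.84 on TPM, whereas it was called higher after size-factor scaling (0.41) and quantile normalization (0.49).

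Of the 2 corepressors among the 9, NCOR1 followed the typical gene and NRIP1 fell further. NCOR1 (ENSG00000141027) was the second most abundant of the 9, at 42.6 and 39.2 TPM in vehicle and 16.0 and 20.0 TPM in JMC45. Its log2 change was -1.15 (SE 0.12, limma adjusted p = 0.000216), and it was 0.16 after size-factor scaling and -0.04 after quantile normalization, neither called. The named NCOR1 pseudogenes were listed at 0 in every library, and PIGL, which shares 321 exonic bases on the opposite strand, measured 14.5 to 19.9 TPM in vehicle and 6.43 to 8.83 TPM in JMC45.

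NRIP1 (ENSG00000180530, also called RIP140) was among the lower-expressed of the 9, at 6.53 and 5.07 TPM in vehicle and 1.16 and 0.78 TPM in JMC45. Without overlap between groups, its log2 change was -1.79 (SE 0.18, limma adjusted p = 0.000175). Because its JMC45 level was near 1 TPM, the pseudocount held this value down: with a pseudocount of 0.1 it was -2.48, and as a ratio of mean TPM NRIP1 was 5.98-fold lower, more than PIAS1 at 5.15-fold. It stayed called lower after size-factor scaling (-0.86) and quantile normalization (-0.60). An antisense gene that shares 562 exonic bases with NRIP1, ENSG00000229047, measured 9.10 and 10.3 TPM in vehicle and 2.13 and 1.08 TPM in JMC45. Reads from the shared bases cannot be assigned to either gene if strand was not used, and their part in the result was not tested.

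**Figure D3:**
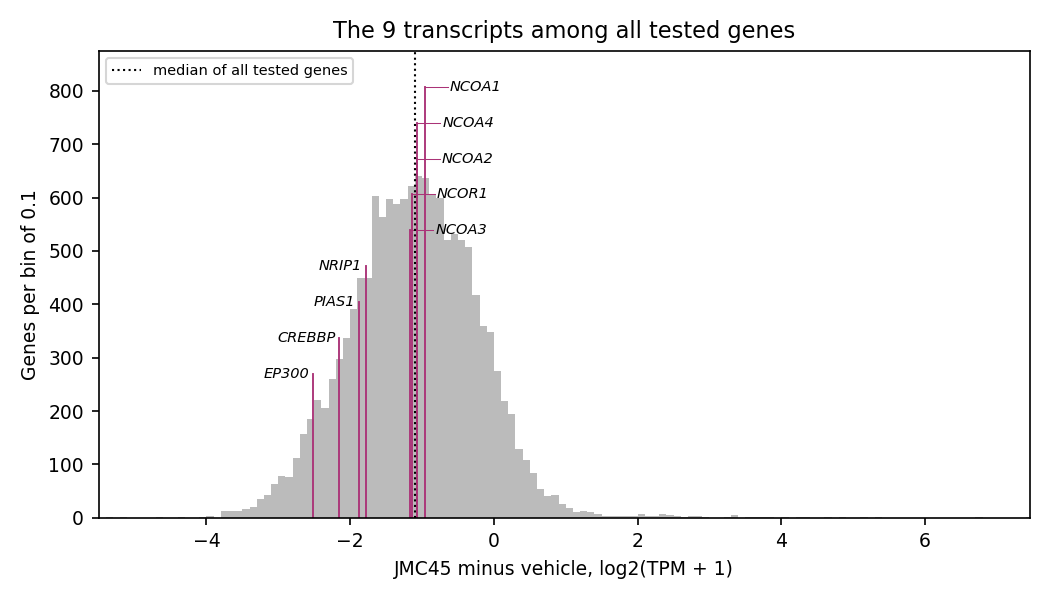
Number of genes per bin of 0.1 in the change on log2(TPM + 1) (JMC45 minus vehicle) for the 14018 genes tested, with the 9 coregulator genes as vertical lines of arbitrary height and the median of all genes as a dotted line at -1.10. NCOA1, NCOA2, NCOA3, NCOA4 and NCOR1 crowd around that line, and NRIP1, PIAS1, CREBBP and EP300 lie to its left, from -1.79 to -2.51.

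Shares among the 9 genes restate the same TPM values relative to one another, and they were added after those values were seen. A single factor per library leaves them as they are, whereas quantile normalization can alter them. NCOA4 went from 42.8% and 46.4% of the summed TPM of the 9 in vehicle to 55.5% and 54.0% in JMC45. EP300 went from 11.7% and 8.71% to 3.68% and 3.40%, and CREBBP from 4.85% and 6.06% to 2.11% and 2.19%. PIAS1 went from 5.22% and 4.40% to 2.41% and 2.50%, and NRIP1 from 3.09% and 2.72% to 1.56% and 1.00%. None of these 5 shares overlapped between groups, nor did that of NCOR1 (20.2% and 21.0%, then 21.5% and 25.8%), each with exact permutation p = 0.33, the smallest possible. The NCOR1 difference of 3.06 percentage points rests on single libraries, being 5.20 without JMC45 replicate 1 and 0.92 without JMC45 replicate 2, and with 1 TPM added to each value its groups overlapped (exact permutation p = 0.67). The shares of the 3 p160 genes overlapped between groups, at 2.43% and 2.61% on average for NCOA1, 6.28% and 7.12% for NCOA2, and 2.70% and 2.45% for NCOA3. With 1 TPM added, those of NCOA1 and NCOA2 no longer overlapped (exact permutation p = 0.33). A share can go up only if others go down, so these values are not independent of one another.

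**Figure D4:**
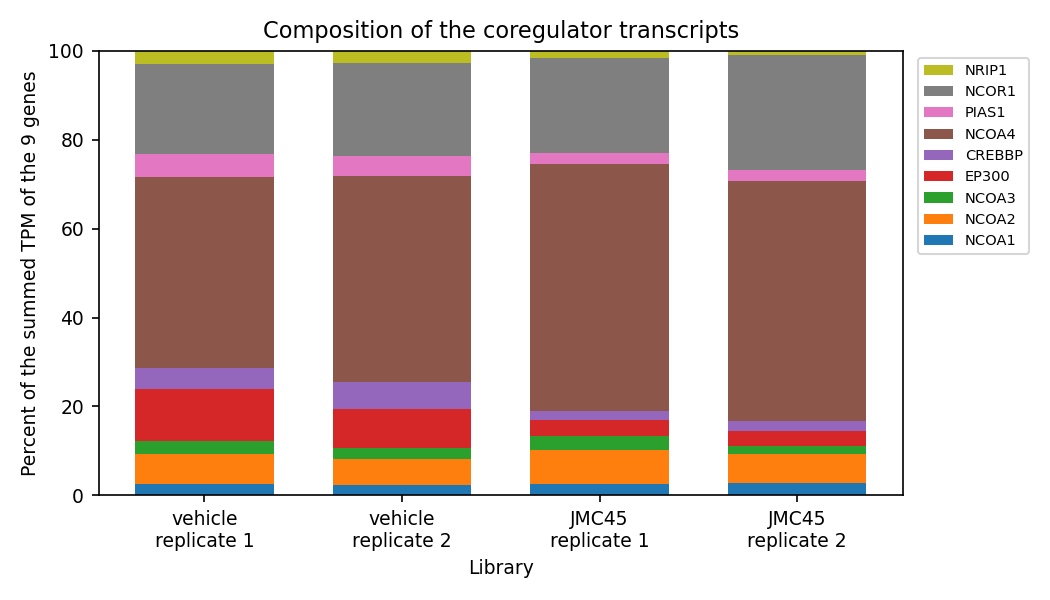
Percent of the summed TPM of the 9 genes held by each gene, stacked from NCOA1 at the bottom to NRIP1 at the top, in each of the 4 libraries. The NCOA4 segment spans 42.8% to 46.4% in vehicle and 54.0% to 55.5% in JMC45, and the EP300 and CREBBP segments are thinner in both JMC45 libraries than in both vehicle libraries.

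Vehicle replicate 1 was above vehicle replicate 2 for 8 of the 9 genes, all but CREBBP, and for 70.2% of all genes tested. The median offset was 0.31 on the log2 scale for the 9 genes and 0.09 for all genes. In JMC45, replicate 1 was the higher one for 4 of the 9 and for 59.3% of all genes tested, with median offsets of -0.02 and 0.04. The changes of all 9 genes on TPM stayed negative when any 1 library was left out. Their median then ran from -1.36 to -1.09, beside -1.17 to -1.03 for all genes tested.

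Most of the 9 are large genes. In GENCODE release 29, 8 of them span between 88.3 kb (EP300) and 294.04 kb (NCOA2), against a median of 27.8 kb for the 13475 tested genes with an entry, and NCOA4 spans 25.6 kb. Among these 8, the genes with the larger decreases were mostly the shorter ones: EP300, NRIP1, PIAS1 and CREBBP spanned 88.3, 105, 144 and 156 kb, and NCOA3, NCOR1, NCOA1 and NCOA2 spanned 155, 189, 279 and 294.04 kb. NCOA4, the shortest of the 9 with one of the smaller changes, did not follow this order. Summed exon length ran from 4.08 kb for NCOA4 to 15.5 kb for CREBBP, with NCOR1 nearly as long at 15.4 kb. Across all tested genes with an entry, Spearman's rho between gene span and the change on TPM was 0.00, and between exonic length and the change it was -0.08. These are values across genes, which are not independent replicates.

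Other coactivators were measured beside the 9 from a list of 36 genes, of which 33 passed the filter. On TPM 32 fell and none rose, with a median of -1.67, where 80.7% of all genes tested fell and the median was -1.10. After size-factor scaling 17 fell and 8 rose, against 35.5% and 34.9% of all genes, and after quantile normalization 22 fell and 5 rose, against 32.8% and 33.6%. The decreases furthest from 0 on the log2(TPM + 1) scale were those of PNRC2, a small receptor-binding protein that also acts in mRNA decapping, from 102.2 ± 8.61 to 7.36 ± 0.799 TPM (log2 change -3.63), and of its relative PNRC1, from 20.4 ± 1.13 to 0.795 ± 0.0212 TPM (-3.58). KAT5, the acetyltransferase also called TIP60, went from 37.0 ± 3.19 to 2.29 ± 0.332 TPM (-3.53). Their order depends on the scale: as ratios of mean TPM, PNRC1 was 25.7-fold lower, KAT5 16.2-fold and PNRC2 13.9-fold. With a JMC45 mean under 1 TPM, PNRC1 passed the filter only through its vehicle level, and its ratio rests on low values. PNRC2, PNRC1 and KAT5 were still called lower after size-factor scaling, at -2.35, -2.60 and -2.37, and after quantile normalization, at -2.60, -2.39 and -2.30. KAT2B, the acetyltransferase PCAF, was the tested gene not called, with 6.54 and 5.73 TPM in vehicle and 4.86 and 5.40 TPM in JMC45, and it was singled out after its values were seen. Its change of -0.22 became 0.93 after size-factor scaling and 1.11 after quantile normalization, both called higher.

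All 21 other corepressor genes passed the filter. On TPM 19 fell and 1 rose, with a median of -1.35, beside 80.7% and 4.25% of all genes. Size-factor scaling left 7 lower and 7 higher (35.5% and 34.9% of all genes), and quantile normalization 9 lower and 5 higher (32.8% and 33.6%). SIN3A, a scaffold of histone deacetylase complexes, went from 32.4 ± 2.96 to 2.68 ± 0.127 TPM (log2 change -3.18). DAXX, a histone chaperone that also represses receptors, fell by 2.65 and SAFB, a nuclear matrix protein that represses receptors, by 2.20, and these 3 were called lower after both rescalings. HDAC1, the deacetylase, was the gene that rose, from 221.1 and 224.8 TPM to 255.1 and 262.0 TPM (log2 change 0.21, limma adjusted p = 0.0115). Its call was lost without JMC45 replicate 2 (0.19) and without the intensity trend (adjusted p = 0.0771), and with mitochondrial TPM equalised between libraries it was called lower (-0.25).

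SUMO pathway genes, the machinery with which PIAS1 works, all passed the filter, and 16 of 16 fell on TPM with a median of -1.32, where 80.7% of all genes fell. After size-factor scaling 6 fell and 5 rose, where 35.5% of all genes fell and 34.9% rose, and after quantile normalization 7 fell and 3 rose, where 32.8% fell and 33.6% rose. The SUMO proteases SENP2 and SENP1 fell by 2.79 and 2.00 and the nucleoporin ligase RANBP2 by 2.20, and all 3 were called lower after both rescalings.

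The receptors themselves were measured as a list of 48 nuclear receptor genes, of which 26 passed the filter. On TPM 24 fell and none rose, with a median of -1.54, against 80.7% of all genes lower and 4.25% higher. After size-factor scaling 17 fell and 2 rose, against 35.5% and 34.9%, and after quantile normalization 12 fell and 3 rose, against 32.8% and 33.6%. NR1H2, the oxysterol receptor LXR beta, went from 38.0 ± 1.88 to 5.04 ± 1.39 TPM (log2 change -2.71). The orphan receptor NR2F6 fell by 2.42 and the retinoic acid receptor RARG by 2.30, and all 3 were called lower after both rescalings. NR3C1, the glucocorticoid receptor, measured 6.74 and 6.01 TPM and then 2.41 and 2.26 TPM, a log2 change of -1.14 that was -0.07 after size-factor scaling and 0.17 after quantile normalization, not called in either. The estrogen receptor ESR1 was at or below 0.05 TPM and the progesterone receptor PGR at or below 0.01 TPM in every library. Low-expressed genes in these lists could pass the filter through their vehicle level alone, so the counts of decreases describe the tested genes only.

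**Figure D5:**
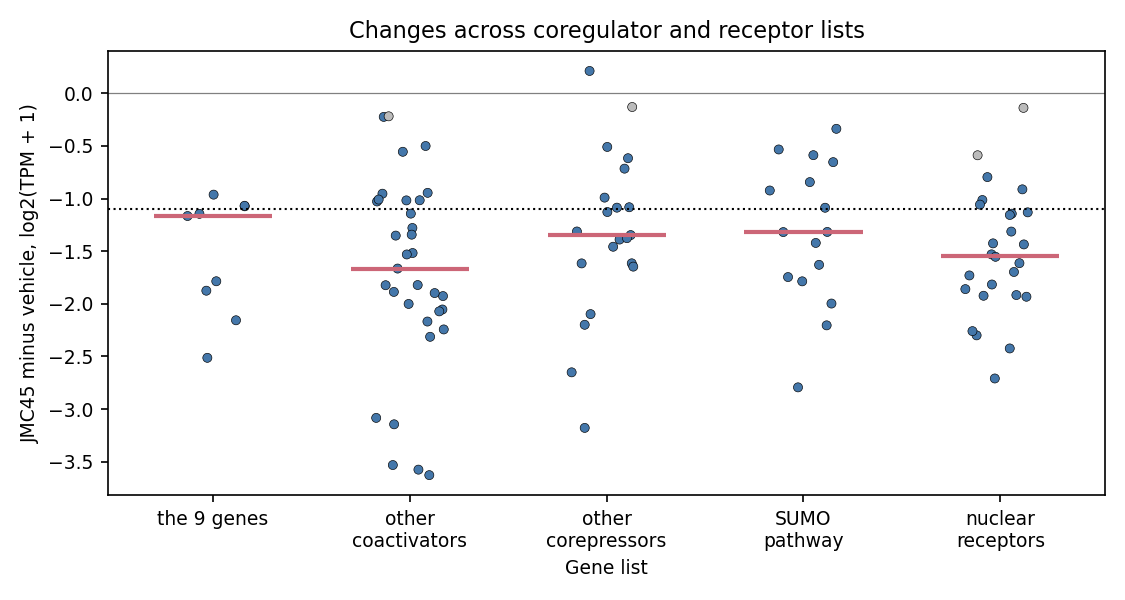
Change on log2(TPM + 1) (JMC45 minus vehicle) of each tested gene in the 9 coregulators and the 4 surrounding lists, with called genes in blue, others in grey, list medians as red bars and the median of all tested genes as a dotted line at -1.10. List medians run from -1.17 for the 9 genes to -1.67 for the other coactivators, and these positions are on TPM only, since many genes change direction after size-factor scaling or quantile normalization.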

How the data were processed

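RNA of 22Rv1 cells was sequenced in 4 libraries, 2 per group. The authors deposited TPM values per Ensembl gene and library, per the file headers. Per the submitters' processing notes the tools included fastp, HISAT2 and StringTie. Their versions, the genome build and the annotation: not given in the sources used here. TPM keeps no depth, so no counting intervals are given. The table held 63241 genes and 50 lines without values, which were left out, and 62666 identifiers matched a symbol. Columns named as controls were matched to vehicle libraries by name and number.

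Values were tested as log2(TPM + 1), a scale that understates changes of low genes, in the 14018 genes whose mean TPM reached 1. Limma 3.58.1 (R 4.3.3) was run two-sided, using an intensity trend and no replicate block, and "rose" and "fell" mean a Benjamini-Hochberg adjusted p under 0.05 over all genes tested. It was also run on simulated data with decreases added to a small part of the genes. Those data had no general shift, unlike the real ones, so that run does not bear on the scaling. Within-library shares were tested by exact permutation, two-sided. Named in the text are the 9 genes, their paralogs, the ferritin genes with HERC2, NR3C1 and up to 3 called genes per list and direction with the largest change. A few genes of that rule, and 1 planned share, are not reported here. The 9 genes and the lists were chosen with earlier results of these data known. Shares among the 9 genes and the promoter motifs were added after the data were seen. Gene models came from GENCODE release 29, as properties only, and promoter windows from RefSeq (GRCh38.p14). Alternatives were other pseudocounts, filters and scalings, no trend, a replicate block and each library left out. Summaries and plots used pandas 2.3.3, numpy 2.4.6, matplotlib 3.10.9 and Python 3.11.15.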

Additional observations from a re-analysis of the deposited data

How the results depend on the processing

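The decreases of EP300, CREBBP, PIAS1 and NRIP1 kept direction and call under every alternative run for them, over ranges of -2.90 to -1.17, -2.64 to -0.85, -2.29 to -0.56 and -2.48 to -0.60. The other 5 genes depended on the scaling. After size-factor scaling NCOA1 was 0.057, NCOA2 0.13, NCOA4 0.26, NCOR1 0.16 and HERC2 0.41, and after quantile normalization NCOA1 was 0.30, NCOA2 0.29, NCOA3 0.093, HERC2 0.49 and NR3C1 0.17. With mitochondrial TPM equalised between libraries FTH1 was -0.039, FTL -0.14 and HDAC1 -0.25. Over all genes, 596 were higher and 11311 lower on TPM, 4888 and 4981 after size-factor scaling, and 4716 and 4603 after quantile normalization, and 181 were higher with mitochondrial TPM equalised between libraries. Of the 9 genes, 4 were lower and 1 higher after size-factor scaling and 5 lower after quantile normalization. Their median of -1.17 was -1.51 with a pseudocount of 0.1 and also at a mean TPM of at least 5 (where NCOA1, NCOA3 and NRIP1 are not tested), -0.15 after size-factor scaling, -0.25 after quantile normalization, -1.13 without the mitochondrially encoded genes, -1.59 with their total held equal, and -1.36 to -1.09 with 1 library left out. For the other lists, size-factor scaling gave 17 lower and 8 higher coactivators, 7 and 7 corepressors, 6 and 5 SUMO pathway genes and 2 higher receptors; quantile normalization gave 5 higher coactivators, 9 lower and 5 higher corepressors, 7 and 3 SUMO pathway genes and 12 and 3 receptors. At a mean TPM of at least 5, where fewer genes are tested, 11 receptors were lower. The 1 corepressor called higher was 0 with mitochondrial TPM equalised between libraries, 0 without the intensity trend and 0 to 1 with 1 library left out. The NCOA2 share of the p160 genes differed by -0.26 with 1 TPM added to each value. With 1 library left out, the share differences ran from -2.86 to 3.74 for NCOA1 and from -8.57 to 3.23 for EP300, and the NCOA3 share of the 9 genes, -0.25, was 0.30 with 1 TPM added and ran from -0.82 to 0.32. Except where stated, the cause was not tested. A group left with 1 library was assumed to vary like the other. The labels do not say whether replicate numbers pair the samples. The correlation of replicate differences between groups was -0.05 over 14018 genes, which cannot exclude pairing with 2 libraries per group. A replicate block gave 613 higher and 11380 lower genes with all 9 coregulators lower. Depth is unknown, so the precision of low values such as those of NRIP1 cannot be set.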
